A study of Mus musculus with 7 samples.

Results

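The cytosolic chaperones that act on polyglutamine protein were followed as 10 genes in the retina of mice with spinocerebellar ataxia type 7 (SCA7), a disease caused by a polyglutamine expansion in ATXN7. The genes were chosen by symbol from what their proteins do, by a rule that uses no measured value, although earlier results of these data were known: the HSP70 genes *Hspa1a*, *Hspa1b* and *Hspa8*, the HSP110 gene *Hsph1*, the HSP90 gene *Hsp90aa1*, the J protein genes *Dnajb1* and *Dnajb6*, the small heat shock protein genes *Hspb1* and *Hspb8*, and *Bag3*. They are 10 of the 52550 genes in the count table, and all 10 were among the 20128 genes with enough counts to be tested. Total RNA of both retinas of each animal was sequenced in 4 wild-type (WT) and 3 homozygous SCA7 140Q/140Q knock-in mice, all of 12.5 weeks and on the C57BL/6J background. The knock-in places an expanded CAG repeat in the first exon of *Atxn7*, so that the mutant protein is made from the gene's own promoter in every cell that expresses it and no normal ATXN7 is left. The study used males and females, and the labels do not give the sex of a mouse.

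As background, HSP70 proteins bind exposed hydrophobic stretches of unfolded or aggregating proteins in cycles of ATP hydrolysis. J proteins such as DNAJB1 and DNAJB6 bring clients to HSP70 and start hydrolysis, and exchange factors such as HSP110 and the BAG proteins release the nucleotide so that the client can leave. HSPB8 and BAG3 form a complex with HSP70 that hands misfolded protein to autophagy, and DNAJB6 is known as a strong suppressor of polyglutamine aggregation. Photoreceptors, the most numerous cells of the retina, renew their outer segments throughout life and so carry a heavy load of protein synthesis and folding. HSPA8 and HSP90AB1 are made in all cells without stress, whereas HSPA1A, HSPA1B and HSP90AA1 are the stress-inducible members of their families. Their induction is driven by heat shock factor 1, which as a trimer binds heat shock elements, that is, inverted GAA units spaced by a pair of bases.

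Promoter sequences are shown because the heat shock element is the known route of induction of this gene family; binding and induction were not measured here. RefSeq windows of build GRCm38.p6, from 250 bases before to 50 bases after a gene's start, were found for 8 of the 10 genes; *Hspa8* and *Hsp90aa1* are only named. GAANNTTC, a pair of inverted units that reads the same on both strands, was present in 7 of the 8 genes, all except *Dnajb1*. Of 27025 genes, 9.04% held it in a window. TTCNNGAA, the opposite arrangement, which can share a unit with the first, was present in 2 of the 8, *Hsph1* and *Dnajb6*, and in 9.6% of all genes. These were also the genes with 3 alternating units in a row, TTCTGGAAAGTTC in *Hsph1* and GAATCTTCCGGAA in *Dnajb6*, an arrangement found in 0.662% of all genes. *Dnajb1* had no exact match, and with 1 mismatch allowed in the 6 fixed bases the first motif was in all 8 genes and in 71.8% of all genes. The 150 bases before the start are printed for an inducible HSP70 gene, a small heat shock protein gene, *Bag3* and *Dnajb1*, each 5′ to 3′ on the strand of the gene, with GAANNTTC matches in capitals. They lie at chr17:34959239-34959388 (minus strand), chr5:135887769-135887918, chr7:128523433-128523582 and chr8:83608025-83608174 (plus strand).
Hspa1b: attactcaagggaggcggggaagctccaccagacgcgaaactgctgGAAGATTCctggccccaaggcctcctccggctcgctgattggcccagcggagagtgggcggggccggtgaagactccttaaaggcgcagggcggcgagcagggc
Hspb1: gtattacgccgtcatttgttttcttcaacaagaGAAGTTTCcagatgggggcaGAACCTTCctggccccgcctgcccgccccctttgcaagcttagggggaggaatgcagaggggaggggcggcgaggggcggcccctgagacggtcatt
Bag3: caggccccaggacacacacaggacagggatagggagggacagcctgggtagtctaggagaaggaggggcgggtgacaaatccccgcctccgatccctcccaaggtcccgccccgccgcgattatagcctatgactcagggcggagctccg
Dnajb1: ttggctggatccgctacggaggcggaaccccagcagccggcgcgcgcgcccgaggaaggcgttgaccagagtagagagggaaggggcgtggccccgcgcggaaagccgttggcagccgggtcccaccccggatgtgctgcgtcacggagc
*Hspb1* held 2 matches in this stretch, beginning 117 and 97 bases before its start, *Hspa1b* held 1, beginning 104 bases before, and *Bag3* and *Dnajb1* held none. The *Bag3* match lay at base 43 of the transcript, and that of *Hspb8* at base 3. The windows of *Hspa1a* and *Hspa1b* differed at 4 of 300 bases, so their shared match is not an independent one. A match describes the letters of the window and does not show that a factor was bound.

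The libraries held 56497675 to 96635832 counts assigned to genes, so that 1 count corresponded to 0.00972 to 0.0188 CPM (the usual count scaled to library size, with TMM normalisation). As a check of the labelled tissue, rod markers together stood at 63110 to 65350 CPM in WT. In SCA7 they were at 17430 to 22320 CPM, and all 10 rod and all 8 cone markers were downregulated. Conversely, 7 of 8 reactive glia markers (215.4 to 238.3 CPM together in WT, 573.8 to 650.6 in SCA7) and 9 of 9 microglia markers (68.72 to 84.88 and 132.3 to 147.1 CPM) were upregulated. Of 9 Müller glia markers, 2 were upregulated, while 5 were higher and 1, *Glul*, lower at an adjusted p under 0.05 (median log2 fold change 0.31). Their sums, to which *Glul* contributes most, were 5527 to 6296 CPM in WT and 6003 to 6313 in SCA7. Of 7 pericyte and smooth muscle markers none passed the thresholds in edgeR, DESeq2 or limma-voom (2 were higher at an adjusted p under 0.05), with sums of 116.2 to 131.4 CPM in WT and 137.4 to 154.9 in SCA7. Of 6 endothelium markers 2 were upregulated (3 were higher and 1 lower at an adjusted p under 0.05), with sums of 148.3 to 186.7 CPM in WT and 201.3 to 255.4 in SCA7, and of 4 red blood cell genes 1 was downregulated (53.3 to 75.24 and 29.83 to 60.48 CPM). Of 5 pigment epithelium markers, 4 were downregulated, from 99.77 to 204.4 CPM in WT to 16.26 to 38.48 CPM in SCA7. Lens markers ran from 20.19 to 547.4 CPM over the 7 libraries without regard to genotype, and of the 7 only *Lim2* was at or near 0. Each result on the chaperones stands beside these shifts, whose part in it was not tested. In RNA of whole retina, fewer cells of a type and less RNA per cell cannot be told apart.

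The question was whether chaperone transcripts respond in a retina that makes polyglutamine protein. Few did. With the study's thresholds (downregulated at FC under 0.7 and upregulated at FC above 1.3, both at an adjusted p under 0.05), 1 of the 10 genes, *Bag3*, was upregulated, against 7.47% of all genes tested. None was downregulated by edgeR's quasi-likelihood test, DESeq2 or limma-voom, against 7.91% of all genes, although 2, *Hspa1b* and *Hsp90aa1*, were lower at an unadjusted p under 0.05 (20.2% of all genes were lower and 19.5% higher at that level). Without regard to the size of the change, *Hsp90aa1* was lower at an adjusted p under 0.05 (14.2% of all genes were) and *Bag3* higher (also 14.2%). For 2 genes, *Hspa1b* and *Hsp90aa1*, all SCA7 mice lay below all WT mice, and for *Bag3* all lay above, where 18.3% and 19.3% of all genes tested were so separated. Their median log2 fold change was 0.02, beside -0.019 for all genes and 0.022 for protein-coding genes, and 6 of the 10 were above 0. With so few genes, these shares do not set the chaperones apart from other genes.

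**Figure D1:**
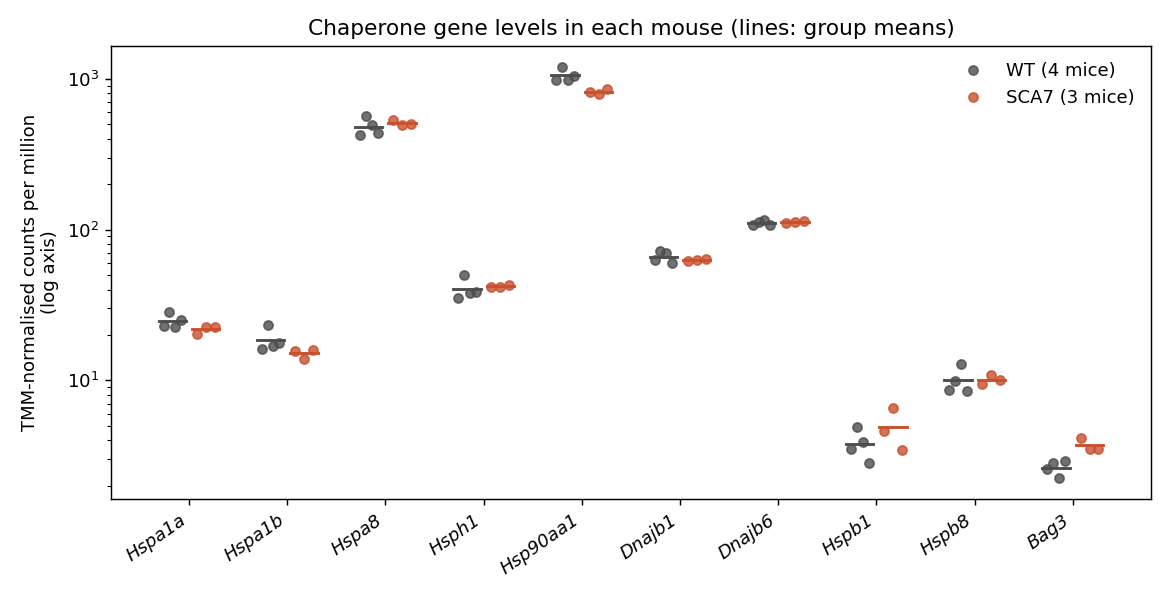
TMM-normalised level in CPM (log axis) of the 10 chaperone genes in each of the 4 WT (grey) and 3 SCA7 (orange) mice, with lines at group means. The groups separate for Bag3 (2.251 to 2.921 in WT, 3.509 to 4.144 in SCA7), Hsp90aa1 and Hspa1b and overlap for the other 7 genes.

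**Figure D2:**
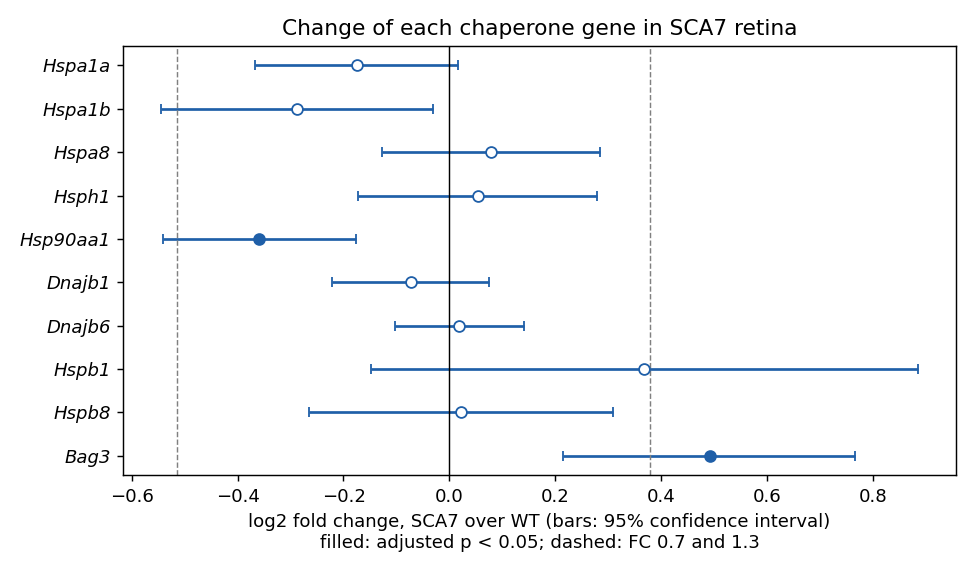
Log2 fold change of SCA7 over WT with its 95% confidence interval for each gene, filled where the adjusted p was under 0.05, and dashed lines at FC 0.7 and 1.3. Bag3 lies at 0.49 and Hsp90aa1 at -0.36, and the interval of Hspb1, -0.15 to 0.88, is the widest.

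*Bag3* (ENSMUSG00000030847, chr7:128523616-128546981, plus strand of GRCm38) codes for the exchange factor that links HSP70 and HSPB8 to autophagy. Its level was 2.58, 2.81, 2.251 and 2.921 CPM in WT mice 1 to 4, and 4.144, 3.527 and 3.509 CPM in SCA7 mice 1 to 3. The lowest SCA7 mouse was thus above the highest WT mouse. The mean was 2.64 ± 0.296 CPM in WT (SD, n = 4) and rose to 3.73 ± 0.362 CPM in SCA7 (SD, n = 3). The log2 fold change was 0.49 (SE 0.126, 95% confidence interval 0.22 to 0.77, adjusted p = 0.013 by edgeR), that is, an FC of 1.41. These are 120 to 201 counts in WT and 255 to 361 in SCA7 libraries. By group mean *Bag3* had the lowest level of the 10 genes, although *Hspb1* was lower in WT mouse 4 and SCA7 mouse 3. No stretch of 50 bases, the read length, is shared between *Bag3* and another gene. The call rested on SCA7 mouse 1: without it the log2 fold change was 0.41 (adjusted p = 0.076), while the other 6 fits that left out 1 mouse kept an adjusted p under 0.05. It was also lost, at 0.56 (adjusted p = 0.056), when WT mouse 2 and SCA7 mouse 2, the libraries with the most lens counts, were both left out. SCA7 mouse 1 was also the one with the highest summed reactive glia markers, 650.6 CPM against 580.2 and 573.8 in the other SCA7 mice, and the 9 immediate early genes, a sign of handling, summed to 102.3 to 113.7 CPM in WT and 114.3 to 133.3 CPM in SCA7. They did not move one way: 4, *Fosb*, *Jun*, *Junb* and *Egr1*, were upregulated, the other 5 had log2 fold changes below 0, of which *Dusp1* passed an adjusted p of 0.05 (-0.48), and the median was -0.04. The part of glia or of handling in the level of *Bag3* was not tested.

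*Hspb8* (ENSMUSG00000041548, chr5:116408491-116422864, minus strand), the partner of *Bag3* in that complex, was expressed at 8.627, 9.969, 12.85 and 8.535 CPM in WT and 9.523, 10.85 and 10 CPM in SCA7. All SCA7 values fell inside the WT range, in which WT mouse 3 stood above the others. The means were 9.99 ± 2.01 and 10.1 ± 0.673 CPM, with a log2 fold change of 0.02 (95% confidence interval -0.27 to 0.31, adjusted p = 0.92), and its sign turned without WT mouse 1 (-0.04), WT mouse 4 (-0.05) or SCA7 mouse 2 (-0.03), while it was 0.16 without WT mouse 3. Hence the rise of *Bag3* was not accompanied by a detectable change of *Hspb8*, whose interval includes changes of up to 0.31 on the log2 scale.

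*Hspb1* (ENSMUSG00000004951, chr5:135887919-135889563, plus strand) codes for HSP27, a small heat shock protein that holds unfolded clients and binds actin. It was at 3.502, 4.893, 3.882 and 2.814 CPM in WT and 4.615, 6.574 and 3.451 CPM in SCA7. The groups overlapped and both were wide: the SD of log2 CPM was 0.331 in WT and 0.466 in SCA7, the largest of the 10 genes in either group. The log2 fold change was 0.37 (SE 0.231, 95% confidence interval -0.15 to 0.88, adjusted p = 0.27), with 0.09 without SCA7 mouse 2 and 0.57 without SCA7 mouse 3, so that an FC anywhere from 0.902 to 1.85 is compatible with these mice. The lens markers in the same libraries summed to 86.58, 330.4, 221.7 and 26.32 CPM in WT and 308.2, 547.4 and 20.19 CPM in SCA7. SCA7 mouse 2 was highest and WT mouse 2 next highest in both measures, the order of the 7 libraries differing between them only at the lowest pair, WT mouse 4 and SCA7 mouse 3. The part of lens tissue in the level of *Hspb1* was not tested. Leaving out both libraries gave a log2 fold change of 0.24 (adjusted p = 0.43). Of the windows of 50 bases in *Hspb1* transcripts, 48.8% are also found in the pseudogene *Hsp25-ps1*, so its count depends on how such reads were assigned.

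**Figure D3:**
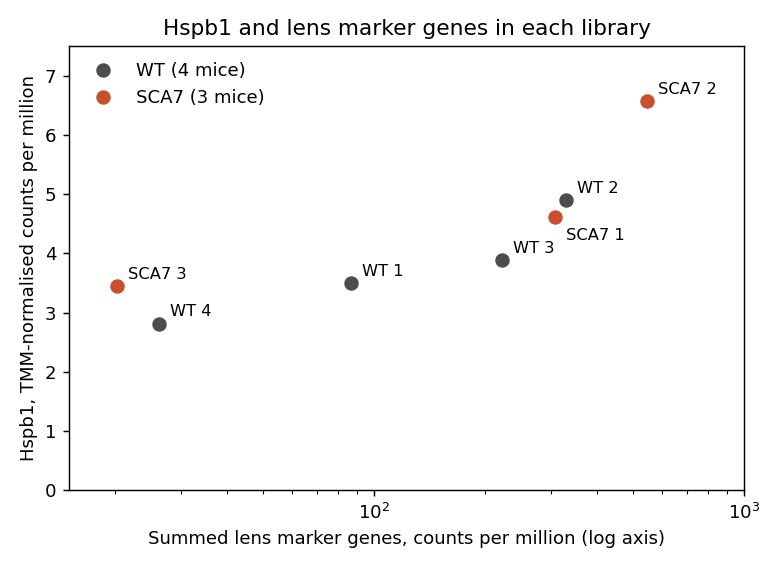
Level of Hspb1 (CPM) against the summed level of 7 lens marker genes (CPM, log axis) in each WT (grey) and SCA7 (orange) library. The libraries with the most lens counts, SCA7 2 (547.4) and WT 2 (330.4), have the highest Hspb1 levels, 6.574 and 4.893 CPM.

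To see which genes followed the same pattern over the 7 mice, log2 CPM centred on each gene's mean was compared for *Hspb1* and *Hspb8*, the 2 chaperones that varied most within WT, over the 14720 genes whose mean level reached 1 CPM. The genes nearest to *Hspb1* were *Lgals3*, at a root mean square difference of 0.097 log2 units, *Cd24a* at 0.139, *Gda* at 0.157, *Smco3* at 0.161 and *Nid1* at 0.167. Nearest to *Hspb8* were *Actc1* at 0.036, *Ndufs8* at 0.042, *Sec61b* at 0.056, and *Nme6* and *Coa3* at 0.059 each. How near a match other patterns would find was not measured.

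Next, the inducible HSP70 genes were considered. *Hspa1a* (ENSMUSG00000091971, chr17:34969190-34972156, minus strand) was at 22.75, 28.49, 22.43 and 25.01 CPM in WT and at 20.27, 22.66 and 22.63 CPM in SCA7. The ranges overlapped, and WT mouse 2 was the highest. *Hspa1a* differed by a log2 fold change of -0.18 (SE 0.088, 95% confidence interval -0.37 to 0.02, adjusted p = 0.16), and by -0.10 without WT mouse 2. *Hspa1b* (ENSMUSG00000090877, chr17:34956436-34959238, minus strand) was at 16.14, 23.31, 16.94 and 17.62 CPM in WT and at 15.71, 13.93 and 15.88 CPM in SCA7. All SCA7 mice were below all WT mice, the nearest pair being 15.88 and 16.14 CPM, and WT mouse 2 was again the highest. Its log2 fold change was -0.29 (SE 0.117, 95% confidence interval -0.54 to -0.03), with an adjusted p of 0.089 by edgeR, and it was -0.16 without WT mouse 2.

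These neighbouring genes are near-identical copies. Their coding sequences aligned with 8 mismatches and 3 gap positions (99.4% identity), and 60.3% of the 50-base windows of *Hspa1a* and 62.3% of those of *Hspa1b* also occur in another gene, so the split of reads between them is uncertain. *Hspa1a* also overlaps *Gm20481* on the opposite strand, and the strand setting used for counting is not given in the sources used here. Their sum, which does not depend on the split, was 38.9, 51.8, 39.37 and 42.63 CPM in WT and 35.98, 36.6 and 38.51 CPM in SCA7. Every SCA7 mouse lay below every WT mouse, with a log2 fold change of -0.22 (SE 0.093) and an adjusted p of 0.095. *Hspa1a* made up 57.3 ± 1.7% of the pair in WT and 59 ± 2.81% in SCA7, a difference of 1.72 percentage points that did not pass an exact two-sided permutation test (p = 0.4, n = 4 and 3). It ran from 0.253 points without SCA7 mouse 2 to 3.06 without SCA7 mouse 1.

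*Hspa8* (ENSMUSG00000015656, chr9:40800984-40810087, plus strand), the constitutive HSP70, was at 421.4, 564.3, 492.6 and 438.6 CPM in WT and 528.8, 489.8 and 499.9 CPM in SCA7. The SCA7 mice lay within the WT range, whose top was WT mouse 2. The log2 fold change was 0.08 (95% confidence interval -0.13 to 0.29, adjusted p = 0.57), with 0.17 without WT mouse 2, 0.02 without WT mouse 1, 0.04 without WT mouse 4 and 0.05 without SCA7 mouse 1. Of its 50-base windows, 38.6% are shared with 14 other genes, led by *Gm15459*, and it overlaps the small nucleolar RNA genes *Snord14c*, *Snord14d* and *Snord14e*. Set against *Hspa8*, the inducible pair accounted for 8.451%, 8.408%, 7.4% and 8.858% of the HSP70 counts in WT and 6.371%, 6.952% and 7.153% in SCA7. Each SCA7 mouse was below each WT mouse. The mean share was lower by 1.45 percentage points (8.28 ± 0.62 and 6.83 ± 0.406%), with p = 0.0571 by exact two-sided permutation test and 0.0856 after adjustment over the 3 shares tested.

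*Hsph1* (ENSMUSG00000029657, chr5:149614287-149636376, minus strand), the HSP110 exchange factor of the disaggregating HSP70 machine, was at 35.24, 50.14, 37.66 and 38.64 CPM in WT and 41.34, 41.59 and 42.93 CPM in SCA7. WT mouse 2 stood apart from the other WT mice, which were all below the SCA7 mice. The log2 fold change was 0.05 (95% confidence interval -0.17 to 0.28, adjusted p = 0.74). It ranged from -0.01 without WT mouse 1 to 0.17 without WT mouse 2, and passed the threshold in none of the 7 such fits.

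The change with the smallest adjusted p among the 10 genes was in *Hsp90aa1* (ENSMUSG00000021270, chr12:110690605-110702728, minus strand), the inducible cytosolic HSP90, which matures kinases and steroid receptors. It was at 977.4, 1205, 987.8 and 1041 CPM in WT and 816.3, 795.7 and 851.1 CPM in SCA7. The groups were apart, all SCA7 mice being lower, and WT mouse 2 was the highest. The mean was 1053 ± 105 CPM in WT (SD, n = 4) and fell to 821.1 ± 28 CPM in SCA7 (SD, n = 3). The log2 fold change was -0.36 (SE 0.084, 95% confidence interval -0.54 to -0.18, adjusted p = 0.0074). This is an FC of 0.78 (0.687 to 0.885), short of the 0.7 the study asks for. The adjusted p stayed under 0.05 in all 7 fits without 1 mouse, -0.39 to -0.29 on the log2 scale. It did not when WT mouse 2 and SCA7 mouse 2 were both left out for their lens counts (-0.27, adjusted p = 0.11). Nor did it by edgeR with scaling by library totals only (-0.17, adjusted p = 0.15), which moved all log2 fold changes up by 0.19. Of its 50-base windows, 47.5% are found in another gene, chiefly the pseudogene *Gm12346*.

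*Hsp90ab1*, the constitutive partner of *Hsp90aa1*, did not follow it: its level was 403.5, 532.6, 500.7 and 442.8 CPM in WT and 563.5, 531.4 and 553.4 CPM in SCA7. Its log2 fold change was 0.23 (SE 0.09, adjusted p = 0.083), with 1 SCA7 mouse under the highest WT mouse. The share of *Hsp90aa1* in the counts of both genes was 70.78%, 69.35%, 66.36% and 70.15% in WT and 59.16%, 59.96% and 60.6% in SCA7. The lowest WT mouse, 66.36%, was well above the highest SCA7 mouse, 60.6%. The difference in means was -9.25 percentage points (69.2 ± 1.95 and 59.9 ± 0.721%), with an exact two-sided permutation p of 0.0286, the smallest that the 35 groupings of 4 and 3 mice allow, and 0.0856 after adjustment over the 3 shares. When 1 mouse was left out it ran from -8.71 to -10.2 points. A share within a library is not moved by the scaling between libraries, and it does not tell a fall of one gene from a rise of the other.

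**Figure D4:**
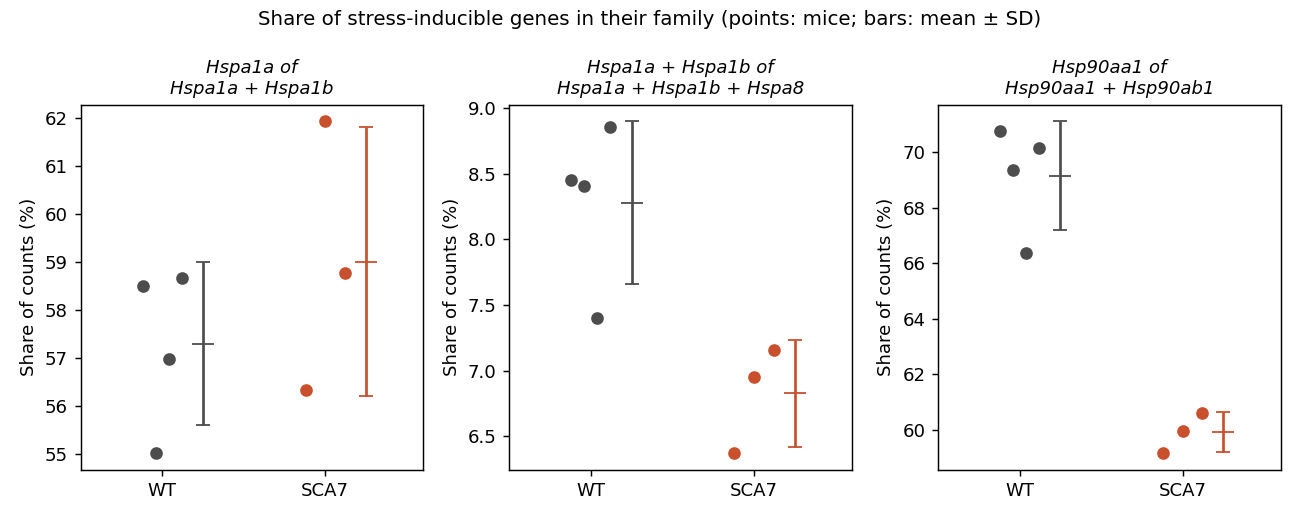
Share of counts (%) taken by Hspa1a in the inducible HSP70 pair, by the pair in HSP70 counts with Hspa8, and by Hsp90aa1 in the cytosolic HSP90 genes, in each WT (grey) and SCA7 (orange) mouse, with mean ± SD; the axes do not start at 0. The Hsp90aa1 share lies at 66.36 to 70.78% in WT and 59.16 to 60.6% in SCA7, and the first share overlaps between groups.

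Both J protein genes varied little. *Dnajb1* (ENSMUSG00000005483, chr8:83608193-83612653, plus strand), the main partner of HSP70 in the stress response, was at 62.52, 71.64, 69.43 and 60.17 CPM in WT and 61.85, 62.59 and 63.67 CPM in SCA7. The SCA7 mice lay close together inside the WT range. The resulting log2 fold change was -0.07 (95% confidence interval -0.22 to 0.08, adjusted p = 0.46), and -0.11 without WT mouse 4, -0.05 without WT mouse 3 and -0.03 without WT mouse 2. *Dnajb6* (ENSMUSG00000029131, chr5:29735688-29818134, plus strand) was at 107, 113, 115.7 and 107.5 CPM in WT and 110.3, 112.6 and 113.8 CPM in SCA7. These are the closest values of the 10 genes, with a log2 fold change of 0.02 and the narrowest interval, -0.10 to 0.14 (adjusted p = 0.83). Its estimate is thus the most precise of the 10, although 17.7% of its windows are shared with other genes, and *Gm5129* overlaps it on the opposite strand.

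Across the genes, 1 WT mouse stood out. WT mouse 2 was the highest WT mouse for 7 of the 10 genes, *Hspa1a*, *Hspa1b*, *Hspa8*, *Hsph1*, *Hsp90aa1*, *Dnajb1* and *Hspb1*, whereas it was highest for 16.5% of all genes tested. WT mouse 3 was highest for 2 of the 10 (33.6% of all genes), WT mouse 4 for 1 (27.2%) and WT mouse 1 for none (22.7%). The highest WT level exceeded the lowest by 1.08 times for *Dnajb6* and by 1.74 times for *Hspb1*. In accord with this spread, the SD of log2 CPM was larger in WT than in SCA7 for 9 of the 10 genes, all but *Hspb1*, beside 74.2% of all genes. WT mouse 2 had the highest lens marker sum of the WT mice, 330.4 CPM. Its immediate early genes summed to 113.7 CPM, close to the 112.7 CPM of WT mouse 4. Among these genes it was the highest WT mouse only for *Jun* and *Atf3*, and the lowest for *Fosb* and *Egr1*. The part of lens tissue or of handling in the pattern was not tested. Without this mouse *Bag3* was still upregulated, and *Hsp90aa1* was still lower at an adjusted p under 0.05 (0.021).

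**Figure D5:**
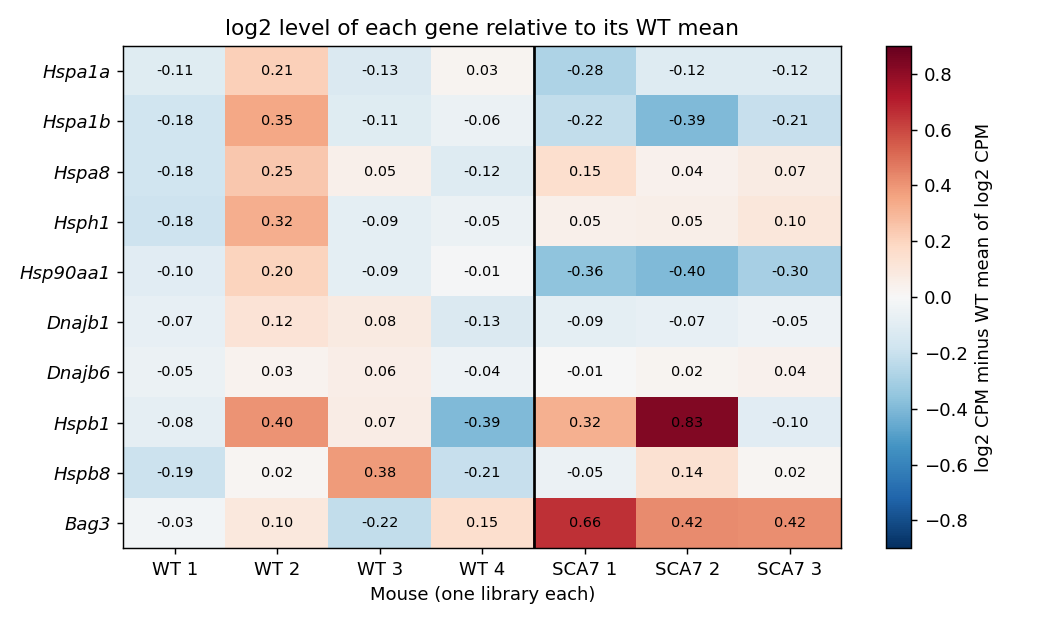
Log2 CPM of each gene in each of the 7 mice, minus the mean log2 CPM of the 4 WT mice (colour and printed value). WT 2 is the highest WT mouse in 7 of 10 rows, Bag3 is higher in all 3 SCA7 mice and Hsp90aa1 lower in all 3.

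Levels were put in order by CPM per kilobase of each gene's median transcript length, the length the study used. In WT, *Hsp90aa1* came first with 1757 ± 176 CPM per kb, then *Hspa8* with 581.9 ± 78.1, *Dnajb6* with 139.3 ± 5.32, *Hsph1* with 53.8 ± 8.82 and *Dnajb1* with 22.5 ± 1.87. *Hspa1a* (8.32 ± 0.942), *Hspb8* (7.79 ± 1.57) and *Hspa1b* (6.6 ± 1.16) followed, each overlapping its neighbour in range over the mice. *Hspb1* (4.12 ± 0.947) and *Bag3* (1.03 ± 0.116 CPM per kb) were last. In SCA7 the order was the same but for *Hspa1a* and *Hspb8*, which changed places at 7.37 and 7.89 CPM per kb. *Hspa1b* (5.42 ± 0.386) and *Hspb1* (5.33 ± 1.72 CPM per kb) were nearly equal there, and 8 of the 10 ranks were kept without SCA7 mouse 1 or without SCA7 mouse 3. The order rests on the length: the median transcript of *Hsp90aa1* is 0.599 kb but its exons together span 3.931 kb, and over all exons *Dnajb1* (20.6 CPM per kb in WT) ranked above *Dnajb6* (18.3) and *Hsph1* fell to 5.56. *Hsp90aa1*, *Hspa8*, *Hspb1* and *Bag3* kept their ranks by either length. Shared sequence is a further limit on the order. Of the 50-base windows of *Hspa8*, *Hsp90aa1*, *Hspb1*, *Hspa1a* and *Hspa1b*, 38.6% to 62.3% also occur in another gene. For *Hsph1*, *Hspb8* and *Bag3* this was 0%. Neither the order nor the shares of counts were corrected for it.

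The rest of the chaperone network was read from 65 genes in 8 lists, of which 64 were tested. Of these, 2 were downregulated and 2 upregulated, where 7.91% and 7.47% of all genes tested were, and the median log2 fold change was 0.02, beside -0.019 for all genes. None of the 4 genes of heat shock factors was called by edgeR, DESeq2 or limma-voom, with 1 lower at an unadjusted p under 0.05. *Hsf1*, the master regulator of the response, was at 17.52 to 20.96 CPM in WT and 18.36 to 19.9 CPM in SCA7 (log2 fold change -0.06, adjusted p = 0.57). *Hsf2* differed by -0.15 (adjusted p = 0.073), *Hsf4* by -0.23 (adjusted p = 0.19) and *Hsbp1*, which codes for a factor that binds HSF1, by 0.02 (adjusted p = 0.9) on the log2 scale. The regulators thus gave no call in either direction. All SCA7 mice nevertheless lay below all WT mice for *Hsf2* (40.04 to 42.57 CPM in WT, 35.27 to 37.89 in SCA7). The same held for *Hsf4* (3.457 to 4.557 and 3.159 to 3.331 CPM), as for 18.3% of all genes tested. *Hsf1* and *Hsbp1* overlapped between groups.

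Among other HSP70 and HSP110 genes, 1 of 8 was upregulated, *Hspa2*, an HSP70 best known from the testis, at 8.422, 8.151, 10.69 and 8.443 CPM in WT and 11.77, 11.05 and 11.99 CPM in SCA7. The groups did not overlap, and its FC of 1.3 (log2 0.38, SE 0.099, adjusted p = 0.013) lay at the threshold. The call was lost in 5 of the 7 fits without 1 mouse: its FC fell under 1.3 without WT mouse 1, 2 or 4 (log2 0.354, 0.338 and 0.355) and without SCA7 mouse 1 or 3 (0.373 and 0.356), where the adjusted p was also above 0.05 (0.055 and 0.059). With the replicate number as a block its log2 fold change of 0.361 was also short of the FC threshold. Of 8 other exchange factors and HSP70 cofactors, 1 was upregulated, *Bag2*, which codes for an exchange factor that inhibits the ubiquitin ligase CHIP. It was at 5.74, 6.725, 7.483 and 5.491 CPM in WT and 9.994, 9.89 and 9.847 CPM in SCA7, a log2 fold change of 0.64 (SE 0.107, adjusted p = 0.00087). Each SCA7 mouse was above each WT mouse for *Bag2*, as were 19.3% of all genes tested. The other BAG genes of the list, *Bag1* (log2 fold change -0.10), *Bag4* (0.06), *Bag5* (0.02) and *Bag6* (0.09), named after their values were seen, overlapped between groups and were not called.

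Of the other small heat shock protein genes, 5 of 6 were tested and 1 was downregulated, *Hspb6*, which codes for HSP20. It was at 42.64, 43.34, 41.33 and 42.57 CPM in WT and 22.33, 23.6 and 24.8 CPM in SCA7. Both groups were tight and far apart, with a log2 fold change of -0.85 (SE 0.06, adjusted p = 1.2e-06), and the level fell by 44.5%. *Cryab*, a small heat shock protein that the lens makes in bulk, was not called and spread as the lens markers did, with 33.18 to 93.55 CPM in WT and 34.54 to 140.2 CPM in SCA7. Of 8 autophagy receptor and LC3 genes, 1 was downregulated, *Optn*, the receptor optineurin, at 170, 161.3, 144.1 and 164.6 CPM in WT and 91.43, 97.74 and 97.29 CPM in SCA7 (log2 fold change -0.74, SE 0.069, adjusted p = 9.8e-06). Both genes were lower in every SCA7 mouse, beside a fall of the summed rod markers to 0.315 of WT, whose part was not tested.

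The remaining lists held no gene past the FC thresholds by the main edgeR fit, DESeq2 or limma-voom. *Fkbp5*, an HSP90 cochaperone gene, was upregulated by edgeR with the replicate block (log2 fold change 0.499, adjusted p = 2.4e-05). In the main fit it was at 0.338 (adjusted p = 0.18). *Hsp90ab1* was upregulated by edgeR with library totals only (0.418, adjusted p = 0.0028). At an unadjusted p under 0.05, 2 of 11 genes of HSP90 and its cochaperones were lower and 1 higher, 1 of 10 J proteins was lower and 4 higher, and 2 of 10 chaperonin subunits were lower and 1 higher, where 20.2% of all genes tested were lower and 19.5% higher. Their medians were -0.07, 0.04 and -0.08 on the log2 scale. At an adjusted p under 0.05 without regard to the size of the change, 5 of the 64 genes were lower and 2 higher, against 14.2% of all genes in each direction. Besides *Hspb6* and *Optn* the lower ones, named after their values were seen, were *Unc45a*, a myosin and HSP90 cochaperone gene (log2 fold change -0.38, adjusted p = 6e-04), the LC3 family gene *Gabarapl1* (-0.25, adjusted p = 0.032) and the chaperonin subunit gene *Cct4* (-0.24, adjusted p = 0.049).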

How the data were processed

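Total RNA of both retinas of each mouse was made into stranded, rRNA-depleted libraries and sequenced as single reads of 50 bases. The authors mapped reads to mm10 with TopHat2 2.0.14 and Bowtie2 2.1.0 and deposited raw counts per Ensembl (release 90) gene from HTSeq 0.6.1; its overlap mode and strand setting are not given in the sources used here. Counts were used as deposited. Symbols, positions and lengths came from GENCODE M21 (GRCm38; 52403 of 52550 identifiers matched).

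Genes kept by filterByExpr were fitted with edgeR 4.0.16 (R 4.3.3; TMM, robust quasi-likelihood test, no covariate), with Benjamini-Hochberg adjustment over 20128 genes. The 10 genes and the lists were chosen with earlier results of these data known. Named besides the 10 were each heat shock factor, called genes of the other lists (at least 1 CPM, at most 4 a list) and the 5 genes nearest in pattern. *Hsp90ab1* is named as the other gene of the HSP90 share. *Cryab*, *Fkbp5*, *Unc45a*, *Gabarapl1*, *Cct4*, the other BAG genes and single markers lie outside this rule and were named after their values were seen. Alternatives were DESeq2 1.42.0, limma-voom (limma 3.58.1), other scalings, filters and thresholds, a block, a sex covariate from Xist, and leaving out each mouse. The code was tested on simulated data. The labels name mice by number, 1 library each, so p-values measure the spread between these mice.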

Additional observations from a re-analysis of the deposited data

How the results depend on the processing

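Of the 10 genes, 1 was upregulated in all settings but 3: none was at an adjusted p under 0.01, without the 2 libraries with the most lens counts (WT 2 and SCA7 2, left out after seeing the data) or without SCA7 mouse 1 (0 to 1 over the fits that left out a mouse). None was downregulated except that 1 was lower with no FC threshold. Scaling by library totals only moved all log2 fold changes up by 0.19 and gave 978 genes downregulated and 3681 upregulated, beside 1592 and 1504. It left, at an adjusted p under 0.05, 0 of the 10 genes lower and 3 higher, and without the lens libraries 0 were lower and 0 higher; over the fits without a mouse 0 to 1 were higher. Relative to that shift, *Hspa8* was at 0.08, *Dnajb6* at 0.02, *Hsp90aa1* at -0.36 and *Bag3* at 0.49; unshifted, the sign turned for *Hspa1a* (0.012), *Dnajb1* (0.119), *Hsf1* (0.123) and *Hsf2* (0.042), by construction of the scaling. In the other lists 5 genes were lower with no FC threshold, and 1 in place of 2 was upregulated with at least 10 counts in every library, with Xist, at an adjusted p under 0.01, without the lens libraries and in 5 of the fits without a mouse (1 to 2 over all); the gene lost was *Hspa2* (log2 0.38 with the count filter, 0.34 with Xist). By library totals 3 were upregulated, *Hsp90ab1* (0.42) being added.

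With the replicate block, *Hspb8* was at -0.036 and *Hsbp1* at -0.036, and no call of the 10 genes changed (*Hsp90aa1* -0.36, *Bag3* 0.55); over all genes it gave 1706 downregulated and 1629 upregulated. In the other lists 2 genes were upregulated with the block, as without it, but *Hspa2* (0.361) fell under the FC threshold and *Fkbp5* (0.499) passed it. Whether replicate numbers mark pairs was not settled. Deviations of same-numbered WT and SCA7 mice correlated at 0.008, 0.197 and 0.081, those of other pairings at -0.188 to 0.054. Mice 2 and 3 of both groups correlated best with their own number, and mouse 1 of neither group did. The labels give same-numbered mice close animal numbers but do not state a pairing. The small log2 fold changes of 2 genes crossed 0 elsewhere too: *Hspb8* with Xist (-0.013), without the lens libraries (-0.032) and without a mouse (-0.046 to 0.16), and *Hsbp1* with Xist (-0.011), without the lens libraries (-0.001) and without WT 4 (-0.039). Leaving out a mouse moved *Hsph1* between -0.008 and 0.173 and *Hsbp1* between -0.039 and 0.092. The cause of these turns was not tested. The order by level kept 4 ranks in WT and 4 in SCA7 with all exons as length, and 6 and 5 with no length. Of 8 promoters, 2 in place of 7 held the element when 3 units were required. *Hsf2* passed an adjusted p of 0.05 with Xist (0.046) and without WT 3 (0.044), *Hsbp1* by library totals (0.027), and *Hspa2* failed without the lens libraries (0.091).  Leaving mice out of the 3 shares was added after seeing the data. With 4 and 3 mice, the intervals in the text set what could be seen, and *Bag3* and *Hspb1* had the fewest counts.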
